A study of Rattus norvegicus with 6 samples.

Results

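The transcripts described here encode the chaperones and co-chaperones of the cytosol and the mitochondria, with the heat-shock factors that control many of them. Members were chosen by symbol: the HSP70, HSP110, HSP90, small heat-shock protein, HSP60/HSP10 and DNAJ families, Bag1 to Bag6, the subunits of the chaperonin CCT, and Hsf1, Hsf2, Ahsa1, Stip1 and Chordc1. The lumenal proteins Hspa5, Hsp90b1 and Dnajb11 were left out. Of 16876 gene symbols in the deposited count table, 89 were members, and 80 of them had enough reads to be tested. Bag5, Dnajb8, Dnajc5b, Dnajc5g and Hspb3 had a count of 0 in every library, and Dnajb7, Hspb2, Hspb7 and Hspb9 had at most 6 counts in any library. The symbol rule also takes in 9 tested J-domain and HSP70 family members that belong to the endoplasmic reticulum, which are given as a class of their own.

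The libraries came from primary rat microglia, shaken loose from mixed cultures and treated for 24 h. One group of 3 libraries received IR-813, a dye that fluoresces in the near infrared, and the other group of 3 received PSNPs, which are polystyrene nanoplastics. The study asked what lies behind altered behaviour and neuronal activity after exposure to these particles. Untreated cells were not analysed here. "Lower" and "higher" mean lower or higher with PSNPs than with IR-813, and the effects of the 2 treatments cannot be told apart. Whether each replicate is a culture or an animal of its own is not labelled, and the p-values therefore rest on a spread between libraries that may be technical.

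Chaperones hold unfolded proteins in solution and help them fold. HSP70 proteins do so in cycles of ATP use that J-domain proteins (DNAJ) start and nucleotide exchange factors (BAG proteins, HSP110) end. HSP90 takes over partly folded clients, small heat-shock proteins hold them without ATP, and the CCT ring folds actin and tubulin. Heat-shock factor 1, encoded by Hsf1, binds inverted repeats of the bases GAA, called heat-shock elements, and raises the stress-inducible members when proteins unfold. The constitutive members, such as Hspa8 and Hsp90ab1, are made in most cells without stress. In the brain, Cryab is known mainly from astrocytes and oligodendrocytes.

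Total counts lay between 19166605 and 22553507 per library, and 13001 to 13255 genes were detected. PSNPs replicate 3 stood apart from its group: log CPM (counts scaled to library size) correlated across genes at 0.974 and 0.971 with the other two, which correlated at 0.995 with each other. For 73 of the 80 tested members, PSNPs replicate 3 was the lowest or the highest library of its group, against 50 for replicate 2 and 37 for replicate 1. That share was not computed over all tested genes, of which PSNPs replicate 3 was the lowest for 44.1%. The labelled cell type was checked against marker genes. Microglial markers were present but summed to 937 to 1252 CPM with IR-813 against 608 to 784 CPM with PSNPs, and 7 of 10 were lower. Astrocyte markers summed to 6278 to 8006 and 7412 to 8271 CPM, with 4 of 8 higher. Oligodendrocyte markers summed to 6292 to 7255 and 4007 to 4616 CPM, with 9 of 10 lower and 1 higher. Neuronal markers summed to 275 to 289 and 121 to 153 CPM, with 7 of 8 tested lower, and markers of fibroblasts, pericytes and endothelium to 74.0 to 126 and 74.1 to 84.3 CPM, with 2 of 4 tested lower. Astrocyte and oligodendrocyte marker sums were thus above the microglial sum in every library, which goes against a pure population as labelled. None of these markers was at 0 in all libraries. Their part in the results below was not tested, and in bulk RNA fewer cells of a type and less RNA per cell cannot be told apart.

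Promoters of 6 members are shown because they carry heat-shock elements of different number and place, in genes that differed strongly (Hsph1, Hspb1, Hspb8, Dnajb1), slightly (Hspa8) or not past the test (Hspe1). Each runs 5′ to 3′ from 250 bases before to 30 bases after the start of the transcript, from RefSeq's table for GRCr8, a build other than the mRatBN7.2 of the deposited files. Capitals mark matches to GAANNTTC, the pair of inverted units, and to 3-unit forms, in which any 2 bases and a further GAA follow the pair or a further TTC and any 2 bases come before it.
Hsph1, chr12:10427118-10427397, + strand: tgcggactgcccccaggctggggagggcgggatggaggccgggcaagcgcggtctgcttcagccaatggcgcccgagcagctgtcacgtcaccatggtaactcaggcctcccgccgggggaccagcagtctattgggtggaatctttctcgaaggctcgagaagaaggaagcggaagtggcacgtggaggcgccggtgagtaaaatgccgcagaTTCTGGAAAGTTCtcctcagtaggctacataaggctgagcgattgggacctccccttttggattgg
Hspb1, chr12:26432272-26432551, - strand: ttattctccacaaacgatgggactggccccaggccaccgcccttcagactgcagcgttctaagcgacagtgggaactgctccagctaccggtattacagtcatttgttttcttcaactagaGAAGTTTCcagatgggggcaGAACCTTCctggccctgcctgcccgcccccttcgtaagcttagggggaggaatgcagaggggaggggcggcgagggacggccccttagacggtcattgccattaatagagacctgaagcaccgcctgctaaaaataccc
Hspb8, chr12:45837058-45837337, + strand: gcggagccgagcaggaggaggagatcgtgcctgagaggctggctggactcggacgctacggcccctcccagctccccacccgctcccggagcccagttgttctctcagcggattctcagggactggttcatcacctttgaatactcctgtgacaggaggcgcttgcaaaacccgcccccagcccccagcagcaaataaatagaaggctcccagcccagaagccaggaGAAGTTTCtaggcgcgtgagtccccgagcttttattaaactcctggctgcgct
Dnajb1, chr19:41431112-41431391, - strand: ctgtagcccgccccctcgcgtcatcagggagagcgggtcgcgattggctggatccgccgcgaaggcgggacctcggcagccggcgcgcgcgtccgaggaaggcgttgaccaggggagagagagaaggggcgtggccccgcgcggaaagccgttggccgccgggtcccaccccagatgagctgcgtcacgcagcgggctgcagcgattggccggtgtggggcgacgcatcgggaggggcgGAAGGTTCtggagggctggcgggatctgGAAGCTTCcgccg
Hspa8, chr8:50080264-50080543, + strand: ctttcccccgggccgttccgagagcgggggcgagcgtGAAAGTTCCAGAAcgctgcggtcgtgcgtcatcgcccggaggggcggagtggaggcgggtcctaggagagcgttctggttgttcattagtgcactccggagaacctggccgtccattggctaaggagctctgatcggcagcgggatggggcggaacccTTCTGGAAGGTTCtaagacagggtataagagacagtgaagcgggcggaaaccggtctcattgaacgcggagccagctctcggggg
Hspe1, chr9:64084077-64084356, + strand: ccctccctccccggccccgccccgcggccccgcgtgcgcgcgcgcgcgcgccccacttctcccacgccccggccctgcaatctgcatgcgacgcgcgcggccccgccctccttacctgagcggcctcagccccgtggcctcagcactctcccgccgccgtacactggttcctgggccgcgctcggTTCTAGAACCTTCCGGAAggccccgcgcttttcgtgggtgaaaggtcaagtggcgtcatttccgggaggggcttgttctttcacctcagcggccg

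Hsph1 holds a 3-unit match that starts at base -36 from the transcript start, and Hspa8 holds 3-unit matches at -213 and -55. Hspb1 and Dnajb1 hold 2 separate pairs each, and Hspb8 holds 1 pair at base -23. In Hspe1 the capitals run through several overlapping matches. The same bases are the only match of Hspd1, which is read in the other direction from the far side of this stretch.

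The largest differences were lower levels with PSNPs. By edgeR's quasi-likelihood test with a Benjamini-Hochberg adjusted p under 0.05, 22 of the 80 tested members (27.5%) were lower with PSNPs, beside 20.1% of all 11679 tested genes. There were 7 higher members (8.75%), beside 20.9% of all tested genes, and 51 members passed in neither direction. At 2-fold or more, 8 members were lower, beside 8.81% of all genes, and 1 was higher, beside 4.67%. The share of members lower by 2-fold or more was thus near that of all genes, and the size of the drop in a few of them was not: Hspa1a, Hspa1b and Cryab ranked 1, 2 and 26 from the lowest log2 fold change of all tested genes. The 3 libraries of each group did not overlap for 27 members that lay lower (background 31.4%) and 17 that lay higher (background 30%). The median log2 fold change was -0.11 over the tested members and -0.01 over all tested genes. The classes differed widely around that median, from -1.29 for the small heat-shock proteins to 0.02 for the DNAJC proteins.

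**Figure D1:**
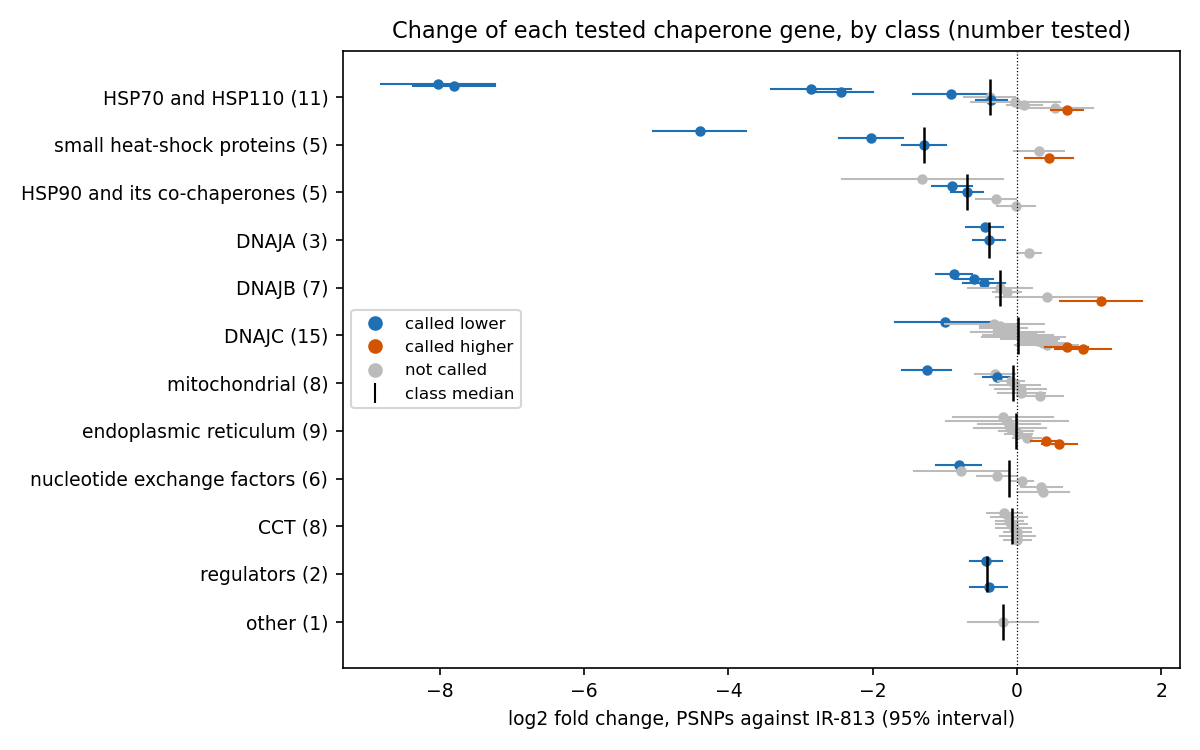
Log2 fold change (PSNPs over IR-813) of each tested member, with its 95% interval, in rows by chaperone class, coloured by call, with the class median as a bar. The stress-inducible HSP70 pair and Cryab lie far to the left, while all 8 CCT subunits lie between -0.18 and 0.01.

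The number of calls moved with single libraries. Without PSNPs replicate 3, 34 members were lower and 15 higher, among them all 22 and all 7 of the full comparison. Without IR-813 replicate 1 or without IR-813 replicate 2, 13 were lower, all of them among the 22. Under each of the 13 other settings tried, 13 lower and 5 higher members kept their call. The 13 were Hspa1a, Hspa1b, Hspa1l, Hsph1, Cryab, Hspb1, Hspb8, Hspa9, Chordc1, Stip1, Dnajb1, Dnajb5 and Bag2, of which Hspa1a had 12 settings because 1 sums it with its copy. The 5 were Hspa2, Dnajb13, Dnajc9, Dnajc10 and Dnajc12. Of the members not called here, Hspa4, Hsp90aa1 and Bag4 were lower by the DESeq2 test, and these 3 with Ahsa1, Hspd1 and Bag3 under library size scaling.

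**Figure D2:**
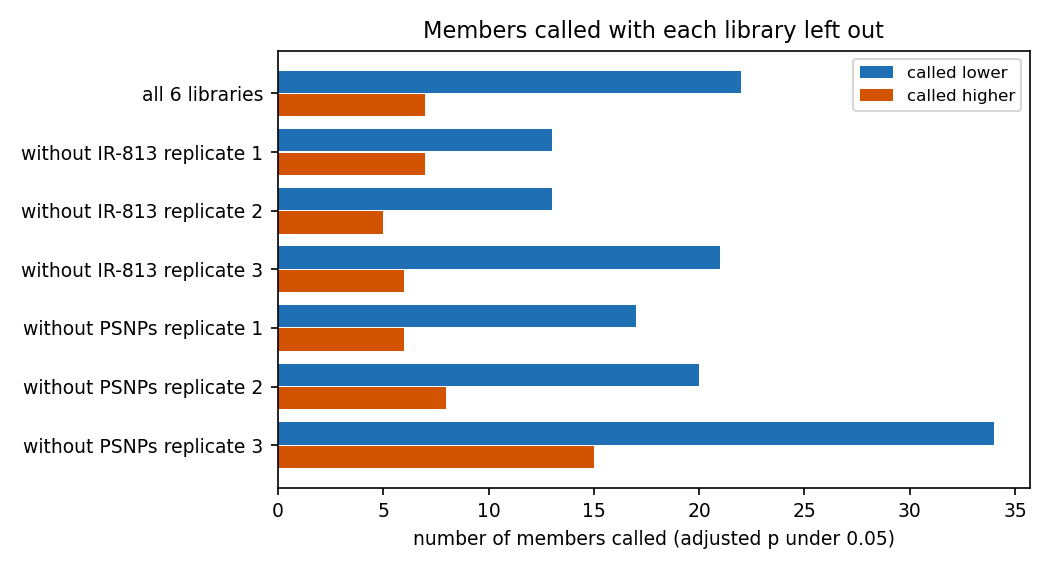
Number of tested members called lower and higher in the full comparison and with each library left out in turn. The count of lower members runs from 13 without IR-813 replicate 1 or 2 to 34 without PSNPs replicate 3.

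The transcripts of both heat-shock factors were lower by a small step. Hsf1 stood at 59.3, 59.3 and 54.3 CPM with IR-813 and at 40.2, 41.6 and 49.7 CPM with PSNPs. Its log2 fold change was -0.39 ± 0.11 (SE; edgeR quasi-likelihood test, adjusted p = 0.0264). Hsf2, a related factor that can join Hsf1 on the same elements, read 83.9, 84.9 and 80.1 CPM against 60.4, 67.8 and 56.8 CPM, a log2 fold change of -0.43 ± 0.09 (edgeR adjusted p = 0.0108). For both factors every PSNPs library lay below every IR-813 library. The Hsf1 call was lost without each library but PSNPs replicate 3 (edgeR adjusted p of 0.0508 to 0.107), and that of Hsf2 without IR-813 replicate 1 or 2 (0.0501 and 0.0593). Transcript level says nothing of the factors' activity, which is set largely on the protein.

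Among HSP70 and HSP110 genes, 6 of 11 were lower (54.5%), beside 20.1% of all tested genes. In the class 1 was higher (9.09%), beside 20.9% of all tested genes, and 4 did not pass. The class median was -0.38. Hspa1b and Hspa1a encode the stress-inducible HSP70 as near-identical copies. Hspa1b stood at 3376, 3180 and 2153 CPM with IR-813 and at 11.9, 14.1 and 13.04 CPM with PSNPs. It ranked between 11 and 24 by CPM among the 11679 tested genes in the IR-813 libraries and between 7884 and 8347 in the PSNPs libraries. The means of 2903 ± 657 and 13.02 ± 1.11 CPM (SD, n = 3) were 223-fold apart, a log2 fold change of -7.80 ± 0.24 (SE; edgeR quasi-likelihood test, adjusted p = 3.95e-05).

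Hspa1a, the second copy, had lower CPM in every library. It read 345, 322 and 217 CPM with IR-813 against 0.827, 0.849 and 1.72 CPM with PSNPs. Its log2 fold change of -8.02 ± 0.33 (edgeR adjusted p = 5.24e-05) was the lowest of all tested genes, and that of Hspa1b the next. How reads common to the copies were assigned is not given, so the split between them is uncertain. Hspa1a held 9.20% ± 0.0658 of the pair's counts with IR-813 and 7.94% ± 3.24 with PSNPs (SD, n = 3). With the counts of both summed, an alternative chosen after the data were seen, the log2 fold change was -7.82.

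Hsph1, the HSP110 that releases ADP from HSP70, came next in the class by drop in CPM. It read 1186, 1071 and 746 CPM with IR-813 against 196, 196 and 162 CPM with PSNPs, which is 5.42-fold lower (log2 -2.44 ± 0.19, edgeR adjusted p = 0.000204). Hspa1l, an HSP70 best known from the testis, read 3.85, 3.54 and 2.87 CPM against 0.506, 0.531 and 0.365 CPM (log2 -2.85 ± 0.23, edgeR adjusted p = 0.000241). None of these genes had overlapping groups. In the GRCr8 table Hspa1l overlaps Hspa1a by 468 bases on the other strand, and the use of strand in counting is not given, so reads from that stretch cannot be told apart.

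The constitutive members of the class had smaller log2 fold changes. Hspa8, the cognate HSP70, read 101, 97.9 and 86.7 CPM with IR-813 against 78.0, 74.2 and 71.3 CPM with PSNPs, a log2 fold change of -0.36 ± 0.09 (edgeR adjusted p = 0.0200). Its groups did not overlap, but the call was lost without IR-813 replicate 1, IR-813 replicate 2 or PSNPs replicate 2 (edgeR adjusted p of 0.0539 to 0.0934). RefSeq names 33 pseudogenes of Hspa8, and reads shared with them cannot be placed with certainty. Hspa4l, an HSP110, was lower at -0.92 ± 0.22 (edgeR adjusted p = 0.0151, then 0.0595 when IR-813 replicate 1 was left out and 0.0514 when replicate 2 was). The related Hspa4 read -0.38 ± 0.15 without passing (edgeR adjusted p = 0.0757), and passed at -0.25 without PSNPs replicate 3 (0.0387).

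Hspa2, an HSP70 with a role in sperm formation, went the other way. It read 28.3, 32.1 and 32.6 CPM with IR-813 against 51.2, 48.8 and 50.5 CPM with PSNPs, with no overlap (log2 0.69 ± 0.09, edgeR adjusted p = 0.00166). By these counts the makeup of the class differed. Hspa1a and Hspa1b together made up 59.6% ± 2.08 of the class's summed CPM with IR-813 against 1.34% ± 0.272 with PSNPs (SD, n = 3). Hspa8 is part of that sum, and reads shared with its 33 pseudogenes cannot be placed with certainty. The shares are therefore uncertain.

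**Figure D3:**
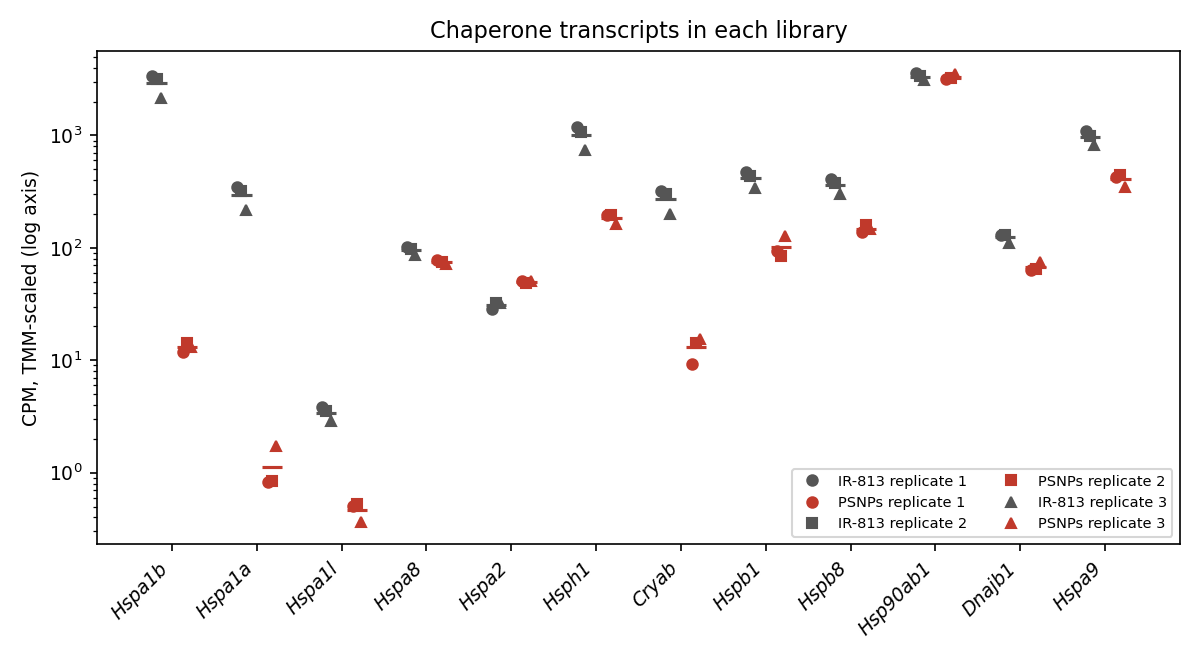
CPM in each of the 6 libraries, on a log axis, for the members on which the account turns. Hspa1b, Hspa1a and Cryab are far apart between the groups, at 223-fold for Hspa1b, while the points of Hsp90ab1 overlap. Bars are group means.

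Small heat-shock proteins had the lowest class median, -1.29 over 5 tested of 9 members, with 3 lower and 1 higher. That is 60% lower and 20% higher, beside 20.1% and 20.9% of all tested genes. Cryab, the alpha-B crystallin of lens, muscle and glia, read 324, 300 and 200 CPM with IR-813 against 9.29, 14.3 and 15.5 CPM with PSNPs. The groups were 21.1-fold apart (log2 -4.40 ± 0.27, edgeR adjusted p = 0.000114). Of the oligodendrocyte markers, from a lineage known to express Cryab, 9 of 10 were also lower and 1 was higher. Of the astrocyte markers, from the other such cell type, 4 of 8 were higher and none lower. The part of either cell type in this difference was not tested. Hspb1, the HSP27 that also binds actin filaments, read 469, 434 and 343 CPM against 93.4, 85.1 and 128 CPM, which is 4.07-fold lower (log2 -2.02 ± 0.19, edgeR adjusted p = 0.000399). Hspb8, which works with Bag3 in clearing aggregates by autophagy, read 411, 376 and 300 CPM against 139, 158 and 147 CPM, which is 2.45-fold lower (log2 -1.29 ± 0.13, edgeR adjusted p = 0.000522). For all 3 the lowest IR-813 library lay above the highest PSNPs library.

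The members of the class outside these 3 did not follow. Hspb11, which despite its symbol is a part of the transport machinery of cilia, read 11.8, 11.5 and 12.6 CPM against 15.2, 14.4 and 19.2 CPM (log2 0.44 ± 0.14, edgeR adjusted p = 0.0420). Its call was lost without any 1 of the IR-813 libraries or PSNPs replicate 1 (edgeR adjusted p of 0.0661 to 0.148). Hspb6 read 0.30 and did not pass. Cryab overlaps Hspb2 by 1331 bases in the GRCr8 table, but Hspb2 had at most 6 counts in any library.

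Neither HSP90 gene passed edgeR's test, though Hsp90aa1 passed in other fits, and 2 of 3 co-chaperones were lower. In this class of 5 members 40% were lower, beside 20.1% of all tested genes. Hsp90ab1, the constitutive HSP90 and by CPM the most abundant member in each library, read 3579, 3369 and 3083 CPM with IR-813 against 3172, 3251 and 3537 CPM with PSNPs. The groups overlapped, and the log2 fold change was -0.01 with a 95% interval of -0.27 to 0.25 (edgeR adjusted p = 0.947). Hsp90aa1, the inducible HSP90, read 26.8, 24.4 and 21.1 CPM against 11.4, 3.08 and 14.7 CPM. Its groups did not overlap, but the PSNPs libraries were widely spread, and -1.31 ± 0.47 did not pass (edgeR adjusted p = 0.0619). Without PSNPs replicate 2 it passed at -0.89, and without PSNPs replicate 3 at -1.71 (edgeR adjusted p of 0.0129 and 0.0075). It was also lower by DESeq2 at -1.30 (adjusted p = 0.0101), by limma on the deposited log2 values at -1.24 (0.0409) and by edgeR with library size scaling at -1.39 (0.0498). RefSeq names 23 pseudogenes of Hsp90ab1 and 16 of Hsp90aa1, so both levels are uncertain.

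Chordc1 (morgana) and Stip1 (HOP, which passes clients from HSP70 to HSP90) were both lower. Chordc1 read 135, 125 and 103 CPM against 68.7, 65.5 and 60.8 CPM (log2 -0.90 ± 0.12, edgeR adjusted p = 0.00153). Stip1 read 418, 401 and 355 CPM against 235, 234 and 261 CPM (log2 -0.69 ± 0.09, edgeR adjusted p = 0.00173). Neither gene's groups overlapped. Ahsa1, which speeds the ATPase of HSP90, read -0.29 ± 0.11 and did not pass (edgeR adjusted p = 0.0804), with PSNPs replicate 3 at 167 CPM, level with IR-813 replicate 3. Without PSNPs replicate 3 it was lower at -0.41 (edgeR adjusted p = 0.00057).

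J-domain proteins were lower in part. Of the DNAJA proteins of the cytosol, Dnaja1 and Dnaja4 were lower and Dnaja2 was not called, though it was higher at 0.15 without PSNPs replicate 3 (edgeR adjusted p = 0.0239). Dnaja1 read 530, 490 and 434 CPM against 369, 373 and 370 CPM (log2 -0.39 ± 0.09, edgeR adjusted p = 0.0153), and Dnaja4 lay at -0.45 ± 0.11 (edgeR adjusted p = 0.0158). Both calls were lost without IR-813 replicate 1 or 2, and that of Dnaja1 also without PSNPs replicate 1 (edgeR adjusted p of 0.0520 to 0.0716). Dnajb1, the HSP40 that partners the inducible HSP70, read 130, 131 and 111 CPM against 63.9, 64.5 and 74.2 CPM, with no overlap (log2 -0.87 ± 0.11, edgeR adjusted p = 0.0011). Dnajb5 was lower at -0.59 ± 0.11 (edgeR adjusted p = 0.00644), and Dnajb2 was lower at -0.46 ± 0.12 (edgeR adjusted p = 0.0220), the latter with the call lost without 4 of the libraries in turn, IR-813 replicates 1 and 2 and PSNPs replicates 1 and 2 (0.0617 to 0.0944).

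Dnajb13, a protein of the axoneme of cilia and sperm tails, was the only member higher by 2-fold or more. It was a low transcript, at 1.52, 1.58 and 1.67 CPM with IR-813 against 4.23, 2.44 and 3.97 CPM with PSNPs (log2 1.16 ± 0.24, edgeR adjusted p = 0.00898). It overlaps an antisense long noncoding RNA gene over 13067 bases in GRCr8, so without strand its reads are uncertain. The same holds for Dnajc9 (24633 bases with Fam149b1), Dnajc6 (23311 and 6517 bases), Dnajb9 (6580 bases) and Stip1 (4301 bases), each of which overlaps a gene on the other strand.

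Of the DNAJC proteins, which bring HSP70 to particular tasks, 12 of 15 tested did not pass, and their median was 0.02. Of all 11679 tested genes, 6889 did not pass. In the class 6.67% were lower and 13.3% higher, beside 20.1% and 20.9% of all tested genes. Dnajc12, which binds the hydroxylases of aromatic amino acids, read 3.98, 3.87 and 4.86 CPM against 6.89, 8.07 and 9.03 CPM (log2 0.91 ± 0.16, edgeR adjusted p = 0.00513). Dnajc9, a histone chaperone, read 47.1, 45.5 and 54.4 CPM against 70.2, 75.9 and 90.9 CPM (log2 0.69 ± 0.13, edgeR adjusted p = 0.00572). Both were higher in every PSNPs library than in any IR-813 library. Dnajc6 (auxilin, which strips clathrin from vesicles, mainly in neurons) was lower at -0.999 ± 0.29 (edgeR adjusted p = 0.0317), and lost its call without any 1 IR-813 library or PSNPs replicate 1 (0.0734 to 0.111). Of the neuronal markers 7 of 8 tested were lower as well, and their part was not tested.

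The BAG proteins and Hspbp1 were grouped as nucleotide exchange factors apart from HSP110. Of the 6 tested, 1 passed and was lower (16.7%), near the 20.1% of all tested genes. Bag2, an inhibitor of the ubiquitin ligase that works with HSP70, read 36.2, 32.2 and 28.03 CPM against 17.97, 16.8 and 20.3 CPM, with no overlap (log2 -0.81 ± 0.13, edgeR adjusted p = 0.00355). Bag3, itself a known target of heat-shock factor 1, read 203, 205 and 157 CPM against 151, 153 and 161 CPM. Its groups overlapped through the third library of each, and -0.28 ± 0.12 did not pass (edgeR adjusted p = 0.0937). It passed without IR-813 replicate 3 at -0.39 and without PSNPs replicate 3 at -0.31 (edgeR adjusted p of 0.0195 and 0.0457). Bag1 read 0.34 ± 0.12 and did not pass (edgeR adjusted p = 0.0590), though it did without PSNPs replicate 2 or 3 (0.0498 and 0.00571). Bag4, which quiets death receptors through HSP70, read 20.7, 18.5 and 19.4 CPM against 14.1, 13.6 and 6.47 CPM. Its groups did not overlap, and -0.77 ± 0.28 did not pass by edgeR (adjusted p = 0.0607). It was lower by DESeq2 (adjusted p = 0.0160), by limma (0.0450) and by edgeR without PSNPs replicate 3 (0.00193).

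In the mitochondria 2 of 8 members were lower (25%), near the 20.1% of all tested genes. Hspa9 was lower while Hspd1 and Hspe1 did not pass. Hspa9 (mortalin), the mitochondrial HSP70 that pulls proteins through the inner membrane, read 1104, 983 and 821 CPM with IR-813 against 431, 442 and 351 CPM with PSNPs. It was 2.37-fold lower without overlap (log2 -1.25 ± 0.14, edgeR adjusted p = 0.00088). Its J-domain partner Dnaja3 was lower at -0.28 ± 0.08 (edgeR adjusted p = 0.0277), a call lost without any 1 IR-813 library or PSNPs replicate 1 (0.0726 to 0.116).

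Hspd1 and Hspe1 encode HSP60 and its lid HSP10 from a shared promoter. Hspd1 read 1009, 943 and 768 CPM against 710, 767 and 725 CPM. The groups did not overlap by a margin of about 1 CPM, and -0.30, with a 95% interval of -0.58 to -0.03, did not pass (edgeR adjusted p = 0.0761). Without IR-813 replicate 3 it passed at -0.41 (edgeR adjusted p = 0.0253). Hspe1 read 144, 140 and 114 CPM against 115, 121 and 155 CPM, with overlapping groups and a log2 fold change of -0.03 (95% interval -0.37 to 0.32, edgeR adjusted p = 0.896). RefSeq names 20 pseudogenes of Hspd1 and 1 of Hspe1, so the level of Hspd1 is uncertain. Whether Hspd1 and Hspe1 differ from each other was not tested.

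The class of the endoplasmic reticulum had 2 higher and no lower members among 9 by edgeR's test, and 0 lower at an unadjusted p under 0.05. The higher share of 22.2% was near the 20.9% of all tested genes. Of all tested genes 20.1% were lower, and the class median was -0.02. Dnajc10, a reductase of disulfide bonds in the lumen, read 166, 172 and 175 CPM against 277, 271 and 222 CPM (log2 0.59 ± 0.10, edgeR adjusted p = 0.00448). Dnajb9, a partner of the lumenal HSP70, read 35.5, 34.8 and 34.6 CPM against 47.0, 43.5 and 48.0 CPM (log2 0.40 ± 0.09, edgeR adjusted p = 0.00987, and 0.0593 without IR-813 replicate 2). Neither gene's groups overlapped. Hspa13 rested on 1 library: it read 45.001, 45.1 and 16.1 CPM with PSNPs against 36.8 to 41.1 CPM with IR-813, at -0.14 in all and at 0.21 without PSNPs replicate 3 (edgeR adjusted p of 0.775 and 0.0226).

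None of the 8 CCT subunits passed by edgeR's quasi-likelihood test, by DESeq2 or by limma, and their log2 fold changes lay between -0.18 and 0.01. The 95% intervals of all 8 lay within -0.42 and 0.24, and 0 of 8 had an unadjusted edgeR p under 0.05. Over all tested genes, 6889 of 11679 did not pass edgeR's test. Cct3 read 508, 495 and 445 CPM against 403, 400 and 480 CPM (log2 -0.18 ± 0.10, edgeR adjusted p = 0.215), with PSNPs replicate 3 inside the IR-813 range. Cct6a read 388, 370 and 341 CPM against 341, 337 and 344 CPM (log2 -0.10 ± 0.08, edgeR adjusted p = 0.315). RefSeq names 14 pseudogenes of Cct6a, 4 of Cct3, 3 of Cct7 and 3 of Cct8, so their levels are uncertain. Without PSNPs replicate 3, Cct3 at -0.26 and Cct7 at -0.21 passed (edgeR adjusted p of 0.00892 and 0.0163). The summed CPM of the subunits was 3505 ± 214 with IR-813 and 3357 ± 257 with PSNPs (SD, n = 3).

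Summed by class, HSP70 and HSP110 differed most in CPM, followed by the small heat-shock proteins and the mitochondrial members. All members together took 19321 ± 2176 CPM with IR-813 against 12969 ± 368 CPM with PSNPs (SD, n = 3). HSP70 and HSP110 summed to 5344 ± 1059 and 1077 ± 149 CPM, and the small heat-shock proteins to 1077 ± 186 and 295 ± 29.6 CPM. The mitochondrial members summed to 2230 ± 287 and 1481 ± 46.9 CPM. Without Hspa1a and Hspa1b the members summed to 16124 ± 1457 and 12955 ± 367 CPM. Hspa1b alone made up 14.9% ± 1.86 of all member CPM with IR-813 against 0.100% ± 0.00825 with PSNPs, while Hsp90ab1 made up 17.4% ± 0.771 and 25.6% ± 0.747. These sums have no test of their own, and a share rises when another falls. The sums and shares also rest on Hspa8, Hsp90ab1, Hsp90aa1 and Hspd1, whose levels are uncertain because of their pseudogenes.

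**Figure D4:**
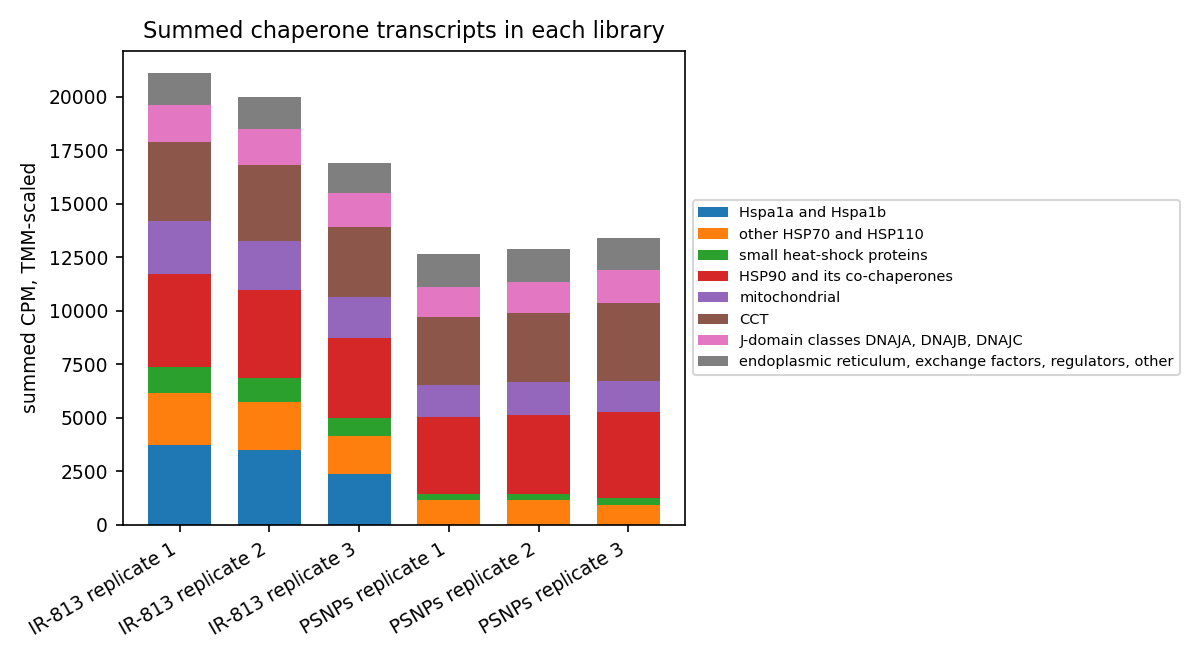
Summed CPM of the members in each library, as bars stacked by class, with Hspa1a and Hspa1b as a segment of their own. All HSP70 and HSP110 sum to 4145 to 6149 CPM with IR-813 against 905 to 1163 CPM with PSNPs, while the CCT segments of the groups overlap in height. Levels of members with many pseudogenes, such as Hspa8, are uncertain.

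To compare genes with each other, the deposited log2 values were unlogged and used as levels per transcript length, a scaling the labels do not state. Their ratio to CPM varied by gene, from 0.362 for Hspe1 to 6.002 for Hspa1b among the genes named here, and the lengths behind it are not given. On that scale Hsp90ab1 stood highest, at 1483 ± 112 with IR-813 and 1481 ± 116 with PSNPs (SD, n = 3). With IR-813, Hspb1 (562 ± 88.1), Hspa1b (484 ± 110), Hspd1 (424 ± 58.9), Hspe1 (367 ± 44.7), Hspa9 (349 ± 51.6) and Cryab (324 ± 77.4) followed in that order, with Cct5 and Dnaja1 between Hspa9 and Cryab. Neighbours among those 6 differed by less than the sum of their SDs. With PSNPs their order was Hspe1 (366 ± 75.5), Hspd1 (345 ± 14.1), Hspa9 (148 ± 15.4) and Hspb1 (140 ± 35.2), with Cryab at 15.5 ± 4.21 and Hspa1b at 2.18 ± 0.190. Dnaja1 and the 8 CCT subunits then all stood between Hspd1 and Hspa9.

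The IR-813 libraries kept an order among the lower members. IR-813 replicate 3 was the lowest of its group for 20 of the 22, and IR-813 replicate 1 the highest for 17. IR-813 replicate 3 was also the lowest for 52 of all 80 tested members (65%), and for 39.4% of all tested genes. For IR-813 replicate 1 as the highest, no such share was computed. For Hspa1b the 3 IR-813 libraries ran from 2153 to 3376 CPM, a spread small beside the gap to the PSNPs libraries. No dose or batch is labelled that could be set beside this order, and its source was not tested.

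Heat-shock elements were counted in RefSeq promoters of 250 bases before to 50 bases after the start. GAANNTTC is its own reverse complement, so 1 search covers both strands, while the 3-unit forms are each other's reverse complement and contain GAANNTTC. A promoter was listed for 71 of the 89 members. Hspa1b, Cryab and Hsp90aa1 were among those without one and were not searched. GAANNTTC was found in 8.59% of all 33469 promoters and in 5.83% of those of the 8867 tested genes that have one. It was found in 16 of the 71 members (22.5%). By call, 8 of 19 lower members (42.1%), 7 of 40 members not called (17.5%) and 0 of 5 higher members held it. A 3-unit form was in 7 of 71 members (9.86%) and in 0.798% of all promoters.

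The median log2 fold change was -0.36 for the tested members with GAANNTTC in the promoter and -0.08 for those without it. Among the lower members it was -1.07 with and -0.69 without. The order was reversed among the 6 that were lower by 2-fold or more and had a listed promoter. There it was -1.66 for the 4 with the motif and -5.44 for those without it, which are only Hspa1a and Hspa1l. Those genes overlap each other, and Hspa1b and Cryab, also lower by 2-fold or more, were not searched. Over all tested genes with a promoter the median was -0.01 with and -0.01 without. These medians have no test. Hspd1 and Hspe1 share the same matched bases, and Cct4 holds a 3-unit form at base 26 after its start with a log2 fold change of -0.05. The windows of Hspa1a and Hspa1l hold no match, which says only that these letters are not there. These members were chosen by family, a match is not a bound site, and no factor was measured.

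**Figure D5:**
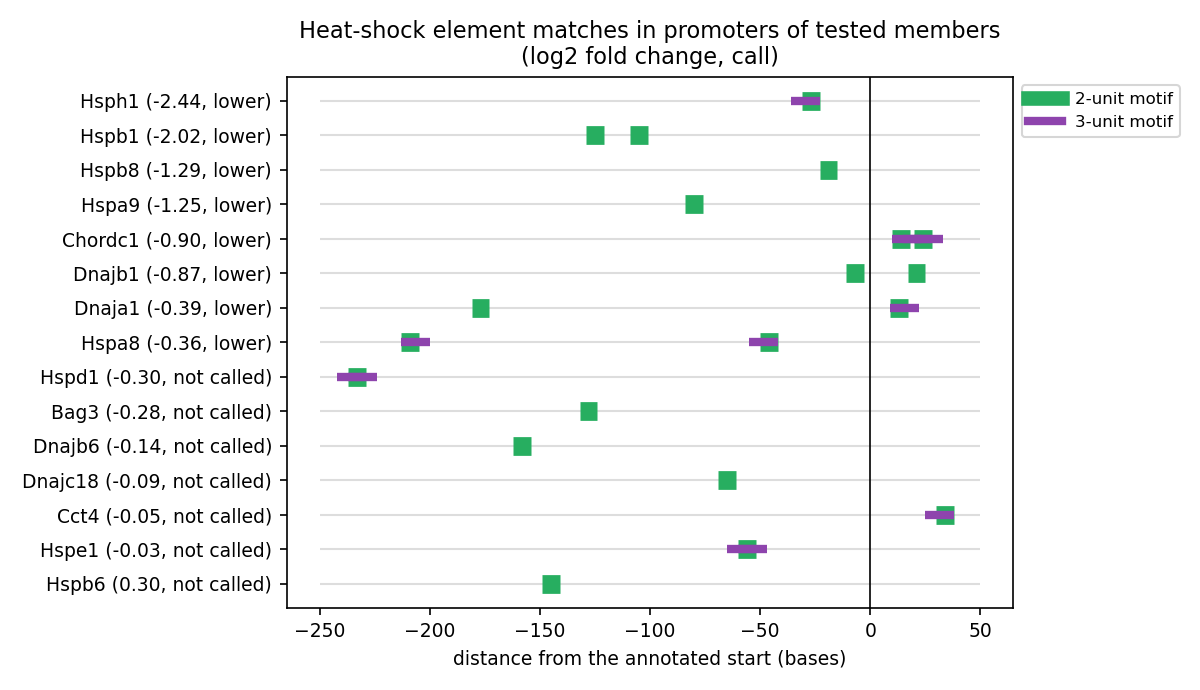
Place of the 2-unit and 3-unit matches in the promoters of tested members, as distance in bases from the annotated start, with members ordered by log2 fold change (in brackets, with the call). The 8 lower members are at the top, and matches lie both near and far from the start in members that were lower and in members that were not called.

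Most genes that work beside the chaperones did not pass the test. The same was true of 6889 of all 11679 tested genes, with 20.9% higher and 20.1% lower. Of 16 partners of HSP90 and HSP70, 4 were higher and 1 was lower, with a median of 0.07: the kinase co-chaperone relative Cdc37l1 was lower at -0.52 ± 0.11 and Unc45a, a myosin chaperone, was higher at 0.37 ± 0.09 (edgeR adjusted p of 0.00999 and 0.0189). The call of Unc45a was lost without any 1 IR-813 library (0.0684 to 0.0730). Of 7 tested prefoldin and CCT partners, 2 were higher and none lower (0 also at an unadjusted p under 0.05), namely the prefoldin subunits Pfdn5 at 0.58 ± 0.14 and Pfdn1 at 0.57 ± 0.16 (edgeR adjusted p of 0.0145 and 0.0305). The call of Pfdn1 was lost without any 1 IR-813 library (0.0721 to 0.105) and that of Pfdn5 without IR-813 replicate 1 or 2 (0.0609 and 0.0564). Prefoldin hands actin and tubulin to CCT, whose subunits were not called.

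Of 11 tested genes of mitochondrial protein quality control, 4 were higher and 2 lower, with a median of 0.21. Over all tested genes 20.9% were higher and 20.1% lower. Lonp1, the protease of the matrix, read 566, 509 and 405 CPM against 234, 234 and 244 CPM, with no overlap (log2 -1.06 ± 0.13, edgeR adjusted p = 0.00111). Hscb, a J-protein for iron-sulfur clusters, was higher at 0.79 ± 0.13 (edgeR adjusted p = 0.00309). Lonp1 thus lay near Hspa9 in size and direction, while most of this list did not.

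Of 4 other genes known to respond to heat-shock factor 1, 1 was lower, 1 was higher and 2 did not pass. Over all tested genes 20.1% were lower and 20.9% higher. Zfand2a, an arsenite- and heat-inducible gene that acts at the proteasome, read 671, 611 and 467 CPM against 92.7, 99.4 and 96.2 CPM, with no overlap (log2 -2.60 ± 0.14, edgeR adjusted p = 0.000101). Ier5, an early-response gene, was higher at 0.50 ± 0.10 (edgeR adjusted p = 0.00834). Serpinh1, the collagen chaperone, and Ubb, a polyubiquitin gene, did not pass.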

How the data were processed

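Counts came from 3 libraries labelled IR-813 and 3 labelled PSNPs, grouped by sample title. Count columns named con belong to samples titled IR-813, and the title was followed. The authors deposited whole-number counts per gene symbol. The authors also deposited log2 values per library, and the labels do not state their scaling. Less a pseudocount of 1, the unlogged values were proportional to the counts, within 0.05 log2 units after a gene and a library factor, for at least 98.8% of 9916 genes in each library. The submitters' processing notes name bcl2fastq and mRatBN7.2. Aligner, counter, annotation and strand setting: not given in the sources used here.

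Genes passing filterByExpr (11679) were scaled by TMM. The test was that of edgeR 4.0.16, run under R 4.3.3 (glmQLFit, glmQLFTest, treatment as the only term), with Benjamini-Hochberg adjustment over all of them and no minimum fold. CPM use TMM-scaled library sizes. The SE of a log2 fold change is its size over the square root of F. Reads are not independent molecules. An exact test of 3 against 3 libraries cannot go below p = 0.1, so none was used. The test was checked on simulated counts drawn with the dispersions fitted to these data. Far fewer genes were changed in them than were called here, each by 2-fold or more. The check therefore cannot speak to scaling under as many changes or to smaller folds. No simulated library was set apart, so the check cannot speak to a library like PSNPs replicate 3. Alternatives used DESeq2 1.42.0, limma 3.58.1, other scalings, no filter, a replicate term, each library left out, and Hspa1a and Hspa1b summed (added after seeing the data).

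Members, classes and lists were chosen with earlier results of these data known. Values are given for members called at 2-fold or more and for the 2 smallest p of each class, and from the other lists for the 2 smallest p and any call at 2-fold or more. Hspd1, Hspe1, Hsp90ab1, Hsp90aa1, Hspa8, Hspa4, Hspa4l, Hspa2, Hspa13, Ahsa1, Bag3, Bag4, Cct4, Cct7, Dnajb2, Dnajc6, Hspb6 and Hspb11 fall outside that rule and were chosen after their values were seen. Pfdn4, Vbp1 and Clpp were not analysed here. One listed gene is not reported here.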

Additional observations from a re-analysis of the deposited data

How the results depend on the processing

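The members' counts were 22 lower and 7 higher with DESeq2 size factors and without the count filter, 25 and 7 with the DESeq2 test, 24 and 8 with limma on the deposited log2 values, and 21 and 7 with Hspa1a and Hspa1b summed. Scaling by library size alone gave 28 and 6, moved the median of all tested genes from -0.01 to -0.09 and that of all members to -0.18, of DNAJC to -0.059 and of the heat-shock factors to -0.49. It put 40.5% of all calls on the higher side (1943 higher, 2852 lower) against 50.9% (2439 and 2351). Leaving out 1 library at a time gave 13 to 34 lower and 5 to 15 higher members, 1473 to 3478 lower and 1339 to 3591 higher genes, and class medians of -0.38 to -0.11 for DNAJB, -0.022 to 0.060 for DNAJC and -0.068 to 0.13 for the endoplasmic reticulum. Hspa13 ran from -0.35 to 0.21, the latter without PSNPs replicate 3. The cause of these shifts was not tested. A fit with the replicate number as a block gave 20 lower members, 19 of them among the 22, and 6 higher. It lost Dnajb2, Dnaja3, Hsf1 and Hspb11. Same-numbered libraries deviated together at correlations of -0.01, 0.01 and 0.12, and not every library correlated best with its own number, so the numbers were not taken to pair the samples. Hspa1a ran from -8.45 to -5.82, Hspa1b from -7.98 to -7.23 and Hspa1l from -2.96 to -0.98, the smallest sizes on the deposited log2 scale, which understates low genes. Dnajc6 ran from -1.35 to -0.41. Depth limits Hspa1a, Hspa1l, Dnajb13, Dnajc6 and Dnajc12, which stood at a few CPM or less in 1 or both groups.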
